A study of Mus musculus with 24 samples.

Results

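The 10 genes described here encode enzymes and 1 activating protein that release arachidonic acid, turn it into leukotrienes and prostaglandins, and begin prostaglandin breakdown. They are Pla2g4a (cytosolic phospholipase A2, cPLA2), Alox5, Alox5ap, Lta4h, Ltc4s, Ptgs1, Ptgs2, Ptges, Hpgds and Hpgd, taken by name from a table of 55487 genes, and all 10 passed the filter on low counts that 14535 genes passed. They were read across 8 groups of mouse bone-marrow-derived dendritic cells (BMDC), 3 mice per group and 24 libraries in all. Every mouse carried Arpc4 Flox/Flox alleles. Control mice (WT) had no CD11c-Cre transgene (CD11c-Cre -/-), and knockout mice (KO) had 1 copy (CD11c-Cre +/-), so that Arpc4 can be deleted only in cells in which the CD11c promoter has been active. Arpc4 is a subunit of the Arp2/3 complex, which nucleates branched actin filaments. Marrow came from male and female mice aged 8 to 10 weeks and was cultured with GM-CSF, a growth factor that drives dendritic cell development. Cells were replated on days 4 and 7, and those in suspension were taken on days 7, 8, 9 and 10. The design asks how differentiation proceeds in KO and WT cells over these days.

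As background, cPLA2 cuts arachidonic acid from membrane phospholipids, and 5-lipoxygenase (Alox5), helped by its membrane partner FLAP (Alox5ap), oxidises it to leukotriene A4. Lta4h converts this to leukotriene B4 and Ltc4s joins it to glutathione to give leukotriene C4. The cyclooxygenases Ptgs1 (COX-1, usually constitutive) and Ptgs2 (COX-2, inducible) make prostaglandin H2, from which Ptges forms prostaglandin E2 and Hpgds forms prostaglandin D2, while Hpgd inactivates prostaglandins. In dendritic cells these lipids bear on migration and cytokine output, and cPLA2 activity has been tied to the display of Ccr7, the chemokine receptor that leads dendritic cells to lymph nodes.

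Libraries held 19952047 to 31049798 counts. Values are CPM (each count as a share of the library total scaled by its TMM factor), and within a group they are listed for mice 63, 65 and 66 in WT and 64, 67 and 68 in KO. Arpc4 was 188 to 199 CPM in WT and 155 to 182 CPM in KO on day 7, and 208 to 242 against 173 to 185 CPM on day 10. The groups did not overlap on any day, but the gene was not called (adjusted p 0.18, 0.69, 0.43 and 0.22 by edgeR), and a count over the whole gene does not show whether the deleted part is missing. The mouse numbers of KO did not hold together across days. In WT the library with high Ddx3y, a Y-linked gene, carried number 63 on every day, whereas in KO it carried 64, 68, 64 and 67 on days 7, 8, 9 and 10. Which KO library came from which mouse is therefore uncertain, while genotype and day are taken as labelled. All 10 listed dendritic cell markers were present in each group, Itgax (CD11c) at 474 to 1117 TPM, and so were all 10 markers of macrophages and all 10 of neutrophils.

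Levels were compared between genes in the authors' deposited TPM, which are scaled by gene length and library total. Alox5ap was highest in all 8 groups, with group means of 534 to 875 TPM, and alone made up 63.1 to 65.0% of the summed TPM of the 10 genes in WT on day 7. Ptgs1 came next in every group, at means of 104 to 293 TPM. On day 7 in WT there followed Lta4h at 51.9 ± 1.65 and Ltc4s at 51.4 ± 7.47 TPM (SD, n = 3 each), whose ranges overlapped. Then came Alox5 at 36.3 ± 3.83 TPM, Hpgds stood at 26.7 ± 1.52 and Pla2g4a at 17.9 ± 0.465 TPM (SD, n = 3 each), none overlapping the next. Ptges at 3.89 ± 0.460, Ptgs2 at 2.26 ± 0.611 and Hpgd at 1.40 ± 0.696 TPM closed the order, with Ptgs2 and Hpgd overlapping. By day 8 Alox5 had moved ahead of Lta4h and Ltc4s in the order of WT means. On day 10 it came after Ptgs1 at 136 ± 5.68 TPM, beside Lta4h at 123 ± 7.66 TPM, with overlapping ranges. The KO groups had the same first pair on every day, Alox5 after them from day 8 on, and Hpgd last. Ptgs2 stood above Ptges by mean on days 8 and 9 in KO, where the libraries of the pair overlapped.

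**Figure D1:**
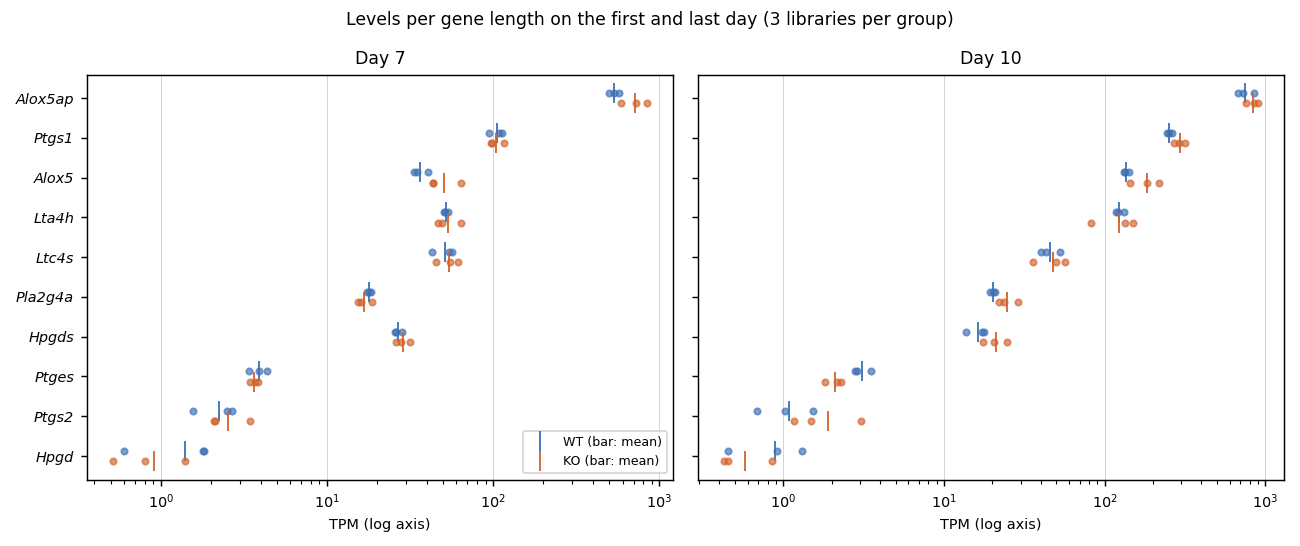
TPM (log axis) of the 10 genes on day 7 and day 10, with 1 point per library and a bar at the mean of each group of 3. Alox5ap lies farthest right in both panels, at means of 534 TPM in WT and 715 in KO on day 7, and Hpgd has the lowest mean in each group.

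Length-scaled ratios place the branches beside each other. The FLAP transcript was at 14.8 ± 0.986 times the level of 5-lipoxygenase in WT and 14.3 ± 1.86 times in KO on day 7, and at 5.55 ± 0.776 and 4.66 ± 0.594 times on day 10 (SD, n = 3 each). The ratio of Lta4h to Ltc4s in WT was 1.03 ± 0.162 on day 7 but 2.59 ± 0.155 on day 8 (SD, n = 3 each), and the ranges did not meet. On days 9 and 10 it was 3.04 ± 0.756 and 2.74 ± 0.405 in WT (SD, n = 3 each). In KO this ratio was 1.02 ± 0.329, 3.07 ± 0.656, 3.12 ± 0.546 and 2.57 ± 0.390 on days 7 to 10 (SD, n = 3 each). COX-1 was at 49.7 ± 17.5 times the level of COX-2 on day 7 and 258 ± 95.1 times on day 10 in WT (SD, n = 3 each). In KO the corresponding ratios were 43.3 ± 14.05 and 179 ± 73.9 (SD, n = 3 each). The balance thus lay with COX-1 in all 24 libraries.

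Promoter sequences are shown for 4 of the genes: Alox5 and Ptgs1, whose CPM rose together, and Pla2g4a and Ptgs2, which lie on chromosome 1 with 138740 bases between them, on opposite strands with their starts facing each other. Each run is the 150 bases before the RefSeq start on GRCm38.p6, read 5′ to 3′ on the gene's strand, with capitals marking a GC box (GGGCGG) in Alox5, an ETS core (GGAAGT) in Ptgs1 and the palindrome TTGCGCAA, a C/EBP motif, in Ptgs2. The stretches are chr6:116461179-116461328 on the reverse strand for Alox5, chr2:36230276-36230425 on the forward strand for Ptgs1, chr1:149961291-149961440 on the reverse strand for Pla2g4a and chr1:150099881-150100030 on the forward strand for Ptgs2.
Alox5: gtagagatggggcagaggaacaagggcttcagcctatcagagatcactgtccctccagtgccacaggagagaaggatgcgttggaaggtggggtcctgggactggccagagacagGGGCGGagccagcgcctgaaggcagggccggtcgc
Ptgs1: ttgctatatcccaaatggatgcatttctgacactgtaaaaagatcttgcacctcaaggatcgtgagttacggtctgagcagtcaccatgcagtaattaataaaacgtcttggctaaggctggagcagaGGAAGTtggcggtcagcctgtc
Pla2g4a: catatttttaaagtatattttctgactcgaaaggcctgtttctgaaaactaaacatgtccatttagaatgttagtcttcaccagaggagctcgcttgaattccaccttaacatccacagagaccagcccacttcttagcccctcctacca
Ptgs2: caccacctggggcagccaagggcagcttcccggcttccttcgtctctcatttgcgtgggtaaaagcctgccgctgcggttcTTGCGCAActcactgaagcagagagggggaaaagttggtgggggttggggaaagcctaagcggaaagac
Of the 10 genes, 9 were matched in the RefSeq promoter table, and Alox5ap was not. For Hpgd the bases after the RefSeq start were not found near the beginning of its annotated transcript, so the place of its window is uncertain. The 250 bases before the start were searched on both strands for 7 motifs, which did not overlap one another. The GC box occurred in 4 of the 9 genes (Alox5, Ptgs2, Ptges and Hpgd; that of Ptgs2 lies upstream of the shown stretch) and in 32.7% of all 32851 windows of that length. The ETS core occurred in 3 (Ltc4s, Ptgs1 and Hpgds) and in 19.7% of windows, and TTGCGCAA in Ptgs2 and 0.164% of windows. The other motifs were found in 0 of the 9 genes. They were the CRE half-site CGTCA, present in 17.8% of all windows of this length, the E-box CACGTG, present in 6.02% of such windows, the TATA motif TATAAA, present in 12.4% of the windows, and the AP-1 motif TGAGTCA, present in 4.46% of them. These are letter matches only. Alox5 and Ptgs1, which moved together in CPM, had different matches in these windows.

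From day 7 to day 10, Alox5, Lta4h and Ptgs1 rose and Hpgds, Ltc4s and Ptges fell in both genotypes, and Ptgs2 fell in WT. The KO value of Ptgs2 over that span was lower as well but was not called (adjusted p 0.084), and the difference between the WT and KO changes was not called either (interaction adjusted p 0.90). A large part of this took place between days 7 and 8, across the replating on day 7: Alox5 and Ptgs1 rose and Ltc4s and Hpgds fell in both genotypes at that step. A gene is written as called, risen or fallen where its adjusted p (edgeR quasi-likelihood test, Benjamini-Hochberg over all genes tested) was under 0.05. In the step from day 7 to day 8, 5 of the 10 genes were called in WT against 43.4% of all genes, and 6 of 10 in KO against 42%. Over the span from day 7 to day 10, 7 were called in WT against 37% of all genes and 6 in KO against 36.8%. From day 8 to day 9 there were 2 in WT (5.4% of all genes). In KO edgeR called 0 at that step (2.33% of all genes), where 4 had an unadjusted p under 0.05 (18.7% of all genes). From day 9 to day 10 edgeR called 0 in WT (3.6% of all genes), with 1 at an unadjusted p under 0.05 (17.7%). It called 0 in KO as well (0.0963%), with 3 at that level (12%), and DESeq2 and limma-trend on TPM called 0 in each of these 3 steps. Without KO mouse 67 by the labelled numbers the KO step from day 9 to day 10 had 5 calls (Alox5, Lta4h, Ltc4s, Pla2g4a and Ptges), where 2090 of all genes were called. That fit leaves out the KO library richest in dendritic cell markers on day 9 and keeps the one richest in them on day 10. Limma-voom called 0 in the WT step from day 8 to day 9, both with no mouse term and with the mouse as a block by the labelled numbers (consensus correlation 0.00464). With KO numbers 64 and 68 exchanged on day 8 and 64 and 67 on day 10 (the exchanged numbers, a setting added once the data had been seen), the blocked limma-voom fit called 4 (consensus correlation 0.230). It called 1707 of all genes at that step, against 532 with the labelled block. Without KO mouse 67 by the exchanged numbers, edgeR called 5 of all genes in the KO step from day 9 to day 10. The median log2 fold change of the 10 genes from day 7 to day 10 was -0.28 for WT and -0.29 for KO; over all genes it was -0.02 and 0.00. On the TPM scale the median of all genes over that span was 0.21 in WT and 0.25 in KO, and 84.4% and 85.9% of calls were higher, against 51.1% and 53.6% in CPM. Changes are therefore relative to the bulk of genes.

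**Figure D2:**
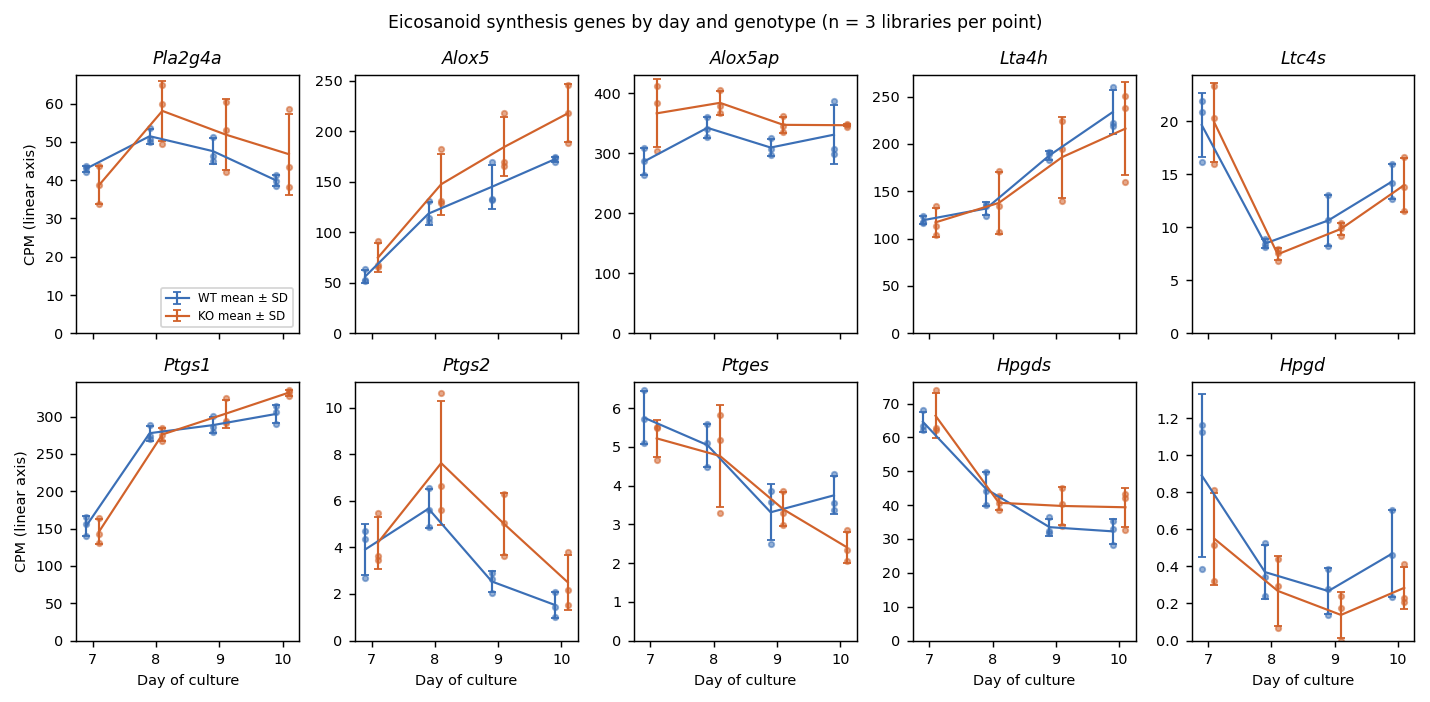
CPM (linear axes from 0) of each gene by day of culture, with points for single libraries and lines through the mean ± SD of the 3 libraries per group, WT in blue and KO in orange. Alox5, Lta4h and Ptgs1 climb, Hpgds and Ptges decline, Ltc4s dips on day 8, and the KO error bars of Pla2g4a and Lta4h are wider than those of WT on each day.

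Other transcripts of cell identity moved over the same span. In bulk RNA, fewer cells of a type and less RNA per cell cannot be told apart. The summed TPM of the 10 dendritic cell markers ranged from 2284 to 3064.5 in WT on day 7 and from 7172 to 9878 on day 10. In KO it ranged from 2874 to 3978 and from 6103 to 13567 on these days. The 10 macrophage markers summed to between 6461 and 7741 TPM in WT on day 7 and between 2825 and 3185 on day 10. The corresponding KO ranges were 6108 to 9552 and 3196 to 3715. A few abundant genes carry these sums, Cd74 with up to 8818 TPM among the dendritic cell markers and Apoe with up to 4942 among the macrophage markers. By edgeR, 7 of the 10 dendritic cell markers rose from day 7 to day 10 in each genotype, Batf3 fell in WT and the others were not called. Of the 10 macrophage markers 7 fell in WT and 8 in KO, and none was called higher. Neutrophil markers summed to 5617 to 11420 TPM in WT on day 7 and 17302 to 23770 on day 10, and to 7954 to 22574 and 11179 to 21455 in KO. Of these 10, 5 rose and Retnlg fell in WT, and Retnlg and Cxcr2 fell in KO. Platelet genes (Pf4, Ppbp and 3 others, of which Gp1bb was listed at 0 in 6 of 8 groups) summed to 929 to 1100.3 TPM on day 7 and 492 to 560.1 on day 10 in WT, and to 671 to 1438 and 384 to 1532 in KO. In each genotype 3 of the 4 tested (Gp9, Itga2b and Ppbp) fell, with a median log2 fold change over the 4 of -2.00 in WT and -2.07 in KO. Eosinophil markers summed to 209.9 to 244 TPM on day 7 and 373 to 550.4 on day 10 in WT, and to 206 to 537 and 258 to 463 in KO, and 2 of 5 rose in each genotype. Mast cell and basophil markers summed to 47.8 to 70.1 and 67.5 to 102 TPM in WT on these days and to 55.9 to 204 and 67.0 to 134 in KO. Of the 8 tested, Kit rose and Tpsb2 fell in both genotypes, while Tpsab1 was at 0 in all 8 groups and Mcpt4 in 7. At the step from day 7 to day 8, across the replating, the day 8 eosinophil sum was 111 to 142 TPM in WT and 101 to 168 in KO, and Epx, Prg2 and Siglecf fell at that step in both genotypes. The mast cell and basophil sum was 126 to 189 TPM in WT and 145 to 331 in KO, with Cpa3, Hdc, Kit and Mcpt8 rising in WT, Kit rising in KO and Tpsb2 falling in both. The platelet sum was 1652 to 1824 TPM in WT, where none of the 4 tested genes was called, and 1194 to 3193 in KO, where Gp9 and Itga2b fell. The neutrophil sum was 7955 to 10596 TPM in WT and 9180.1 to 15229.8 in KO, and 3 of its 10 markers fell in WT and 5 in KO. Of the macrophage markers 3 fell and 2 (C1qa and Fcgr1) rose in WT and 4 fell in KO, and of the dendritic cell markers Irf4 rose and Batf3 fell in both genotypes and Zbtb46 rose in KO. T cell, B cell and erythroid markers summed to at most 7.81 TPM. The part of these shifts in the changes of the 10 genes was not tested.

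Pla2g4a (ENSMUSG00000056220.14, chr1:149829618-149961290, reverse strand, GRCm38) encodes the phospholipase at the head of the pathway. In WT it stood at 42.2, 43.7 and 43.3 CPM on day 7, 53.7, 50.9 and 49.9 on day 8, 46.4, 51.4 and 44.98 on day 9 and 38.5, 41.4 and 39.9 on day 10 in that order of mice. In KO, Pla2g4a stood at 43.6, 33.8 and 38.8 CPM on day 7, 60.0, 49.4 and 64.9 on day 8, 60.5, 42.2 and 53.1 on day 9 and 38.3, 58.6 and 43.4 on day 10. Day 8 was above day 7 without overlap in both genotypes, and the 3 WT libraries of day 10 lay below all 3 of day 7. The step from day 7 to day 8 was called in KO (log2 fold change 0.58, SE 0.14, adjusted p 0.0019), and not in WT (log2 fold change 0.26, SE 0.14, adjusted p 0.14). WT passed in 6 of 18 alternative fits, and the difference between the WT and KO steps was not tested. Between days 7 and 10 the log2 fold change was -0.11 (SE 0.14, adjusted p 0.58) in WT and 0.27 (SE 0.14, adjusted p 0.13) in KO. The KO value passed in 3 of 18 alternative fits: limma-trend on TPM (0.54, adjusted p 1.8e-04), without KO mouse 64 (0.49, adjusted p 0.021) and without KO mouse 67 under the exchanged numbers (0.33, adjusted p 0.037). It was -0.02 without KO mouse 67. In TPM the KO libraries went from 15.3 to 18.7 on day 7 to 21.97 to 28.9 on day 10 without overlap. The WT libraries were likewise higher in TPM on day 10, with 17.4 to 18.3 on day 7 and 19.4 to 20.9 on day 10, so this gene has no direction in WT that holds on both scales.

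Alox5 (ENSMUSG00000025701.12, chr6:116410077-116461178, reverse strand), the 5-lipoxygenase gene, had the largest rise of the 10 over the span from day 7 to day 10. WT libraries held 52.1, 53.1 and 63.3 CPM on day 7, 131, 110.0 and 114 on day 8, 169.9, 131 and 133 on day 9 and 173, 169.5 and 174 on day 10. KO libraries held 65.5, 91.2 and 67.6 CPM on day 7, 131, 182 and 129 on day 8, 166, 218 and 169 on day 9 and 246, 189 and 218 on day 10. Every library of day 8 was above every library of day 7 of its genotype. The later steps of Alox5 were higher by mean, 0.29 and 0.25 in WT and 0.32 and 0.24 in KO on the log2 scale, and were not called (adjusted p 0.27, 0.41, 0.26 and 0.56). From day 7 to day 8 it rose 2.11-fold in WT (log2 fold change 1.08, SE 0.15, adjusted p 1.3e-05) and 1.97-fold in KO (log2 fold change 0.98, SE 0.15, adjusted p 3.6e-05). Over the span from day 7 to day 10 the rise was 3.07-fold in WT (adjusted p 3.0e-07) and 2.91-fold in KO (adjusted p 4.5e-07), called in all 18 alternative fits.

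Alox5ap (ENSMUSG00000060063.9, chr5:149264767-149288153, forward strand), which encodes FLAP, had the highest level of the 10 in TPM and spanned 263 to 412 CPM over the 24 libraries. It stood at 287, 263 and 309 CPM on day 7, 361, 327 and 339.6 on day 8, 325, 306 and 297 on day 9 and 307, 298 and 388 on day 10 in WT. In KO it stood at 303, 412 and 384 CPM on day 7, 367, 379 and 406 on day 8, 361, 336 and 345 on day 9 and 348, 344 and 348 on day 10. The WT libraries of day 8 lay above those of day 7 without overlap, and the KO range of day 7 took in the KO libraries of every later day. In WT it rose 1.196-fold from day 7 to day 8 (log2 fold change 0.26, SE 0.10, adjusted p 0.047). The call held in 13 of 18 alternative fits and was lost without WT mouse 63 (adjusted p 0.21), WT mouse 65 (0.16) or KO mouse 68 (0.067, and 0.066 under the exchanged numbers) and with no filter on low counts (0.060). Day 10 against day 7 gave a log2 fold change of 0.21 (SE 0.10, adjusted p 0.12) in WT and -0.08 (SE 0.10, adjusted p 0.58) in KO. The TPM scale gave larger values. There WT went from 497 to 573 TPM on day 7 to 678 to 846 on day 10 without overlap, and limma-trend on log2(TPM + 1) called the rise (0.48, adjusted p 1.0e-03). The KO mean was also higher in TPM on day 10, 836 against 715, and was not called (0.24, adjusted p 0.065).

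The leukotriene synthases differed between days 7 and 8, where Ltc4s fell and Lta4h was not called. At the later steps both were higher by mean in both genotypes. Lta4h (ENSMUSG00000015889.8, chr10:93453411-93484875, forward strand), the leukotriene B4 enzyme, was 117, 117 and 124 CPM on day 7, 137, 124 and 134 on day 8, 189, 182 and 192 on day 9 and 219, 222 and 259.9 on day 10 in WT. In KO it was 104, 134 and 113 CPM on day 7, 135, 171 and 107 on day 8, 139.6, 224 and 194 on day 9 and 250.4, 160.1 and 238 on day 10. WT climbed after day 8, day 9 and day 10 each lying above the day before without overlap, while KO libraries of 1 day were up to 1.61 times apart. No single step was called, but day 10 was at 1.96 times the level of day 7 in WT (log2 fold change 0.97, SE 0.17, adjusted p 1.9e-04) and 1.85 times in KO (log2 fold change 0.88, SE 0.17, adjusted p 5.0e-04), in all 18 alternative fits. The WT step from day 8 to day 9 (log2 fold change 0.51, SE 0.17, adjusted p 0.081) passed in 9 of the 18.

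Ltc4s (ENSMUSG00000020377.15, chr11:50236461-50238616, reverse strand), the leukotriene C4 synthase, was 21.9, 16.2 and 20.9 CPM on day 7, 8.91, 8.38 and 8.10 on day 8, 13.1, 10.7 and 8.22 on day 9 and 15.98, 12.7 and 14.2 on day 10 in WT. KO libraries were at 20.3, 15.99 and 23.4 CPM on day 7, 6.84, 7.91 and 7.61 on day 8, 9.21, 10.4 and 9.95 on day 9 and 13.8, 11.6 and 16.6 on day 10. All libraries of day 8 lay below all of day 7 and of day 10 in both genotypes. The fall from day 7 to day 8 was 2.32-fold in WT (log2 fold change -1.22, SE 0.17, adjusted p 8.0e-06) and 2.67-fold in KO (log2 fold change -1.41, SE 0.17, adjusted p 1.5e-06). Day 10 remained below day 7, with log2 fold changes of -0.46 (SE 0.16, adjusted p 0.032) in WT and -0.51 (SE 0.16, adjusted p 0.019) in KO. The WT libraries of these days did not overlap and the KO libraries did. These calls held in 13 and 12 of 18 alternative fits. On the TPM scale both ended, with limma-trend values of -0.17 (adjusted p 0.45) in WT and -0.19 (adjusted p 0.36) in KO. The WT call was lost without any 1 of the WT mice (adjusted p 0.089 to 0.16) or KO mouse 64 (0.050), and the KO call without KO mouse 64 (0.12) or 68 (0.061), under the exchanged numbers too, and with only the groups compared (0.074). The upward steps between days 8, 9 and 10, 0.33 and 0.43 in WT and 0.40 and 0.51 in KO on the log2 scale, were not called. Gm26542 overlaps Ltc4s on the opposite strand and its counts came to 2.65% of those of Ltc4s.

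Among the cyclooxygenases, Ptgs1 (ENSMUSG00000047250.13, chr2:36230426-36252272, forward strand) encodes COX-1. In WT it stood at 139.5, 156 and 166 CPM on day 7, 289, 270.4 and 273 on day 8, 300.3, 286 and 279 on day 9 and 290.5, 314 and 306 on day 10. In KO it was 164, 130.4 and 143 CPM on day 7, 268, 285 and 275 on day 8, 292, 325 and 294 on day 9 and 335, 333 and 328 on day 10. All libraries of days 8 to 10 lay above all libraries of day 7, while the later WT steps, 0.06 and 0.07 on the log2 scale, were not called. The later KO steps, 0.14 (adjusted p 0.34) and 0.13 (adjusted p 0.53), each lay above the day before without overlap and were not called either. Ptgs1 rose 1.81-fold from day 7 to day 8 in WT (log2 fold change 0.85, SE 0.08, adjusted p 4.7e-08) and 1.89-fold in KO (log2 fold change 0.92, SE 0.08, adjusted p 2.0e-08). By day 10 it was 1.97-fold and 2.28-fold above day 7 (adjusted p 3.0e-08 and 2.5e-09), and these 4 calls held in all 18 alternative fits.

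Ptgs2 (ENSMUSG00000032487.8, chr1:150100031-150108227, forward strand), the inducible cyclooxygenase, was scarce, with 29 to 317 counts per library. WT held 4.70, 2.67 and 4.36 CPM on day 7, 4.86, 5.59 and 6.54 on day 8, 2.65, 2.05 and 2.91 on day 9 and 2.10, 1.45 and 1.02 on day 10. KO held 3.47, 5.49 and 3.64 CPM on day 7, 5.59, 10.6 and 6.63 on day 8, 6.30, 5.03 and 3.64 on day 9 and 3.82, 2.15 and 1.53 on day 10. It was highest on day 8 by mean in both genotypes and lowest on day 10. Among WT days, it fell from day 8 to day 9 (log2 fold change -1.16, SE 0.34, adjusted p 0.048) and lay 2.57-fold lower on day 10 than on day 7 (adjusted p 0.0044). The first of these calls held in 11 of 18 alternative fits and was lost without any 1 of the WT mice (adjusted p 0.20 to 0.30), without KO mouse 68 under the exchanged numbers (0.053) and on the TPM scale (0.084). In limma-voom it was lost with no mouse term (0.074) and with the mouse as a block by the labelled numbers (0.073), and kept with the block by the exchanged ones (0.016). The second held in 17 and was lost without WT mouse 66 (0.097), and its log2 fold change was -1.36 in CPM and -0.65 on the log2(TPM + 1) scale. In KO the called step was a 1.82-fold rise from day 7 to day 8 (adjusted p 0.035), kept in 12 of 18 fits and lost without KO mouse 67 (0.10) or 68 (0.078), without any 1 of the KO mice under the exchanged numbers (0.054 to 0.088) and with only the groups compared (0.050). At the same step WT was 1.44-fold higher without overlap and was not called (log2 fold change 0.53, SE 0.32, adjusted p 0.20). The difference between the WT and KO steps was not tested. The KO value of day 10 against day 7, -0.74 (SE 0.33, adjusted p 0.084), was not called. It passed in 3 of 18 alternative fits: limma-voom with the block by the exchanged numbers (adjusted p 0.027, against 0.075 by the labelled ones and 0.076 with no mouse term), without KO mouse 64 (0.013) and without KO mouse 67 under the exchanged numbers (0.042).

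Hpgds and Ptges, the terminal prostaglandin synthases among the 10 genes, both fell from day 7 to day 10 in CPM. Hpgds (ENSMUSG00000029919.5, chr6:65117293-65144908, reverse strand), which makes prostaglandin D2, was 63.5, 68.0 and 62.3 CPM on day 7, 40.1, 49.8 and 44.3 on day 8, 31.8, 36.4 and 32.3 on day 9 and 33.0, 35.4 and 28.3 on day 10 in WT. KO values were 74.1, 62.1 and 62.9 CPM on day 7, 40.6, 38.6 and 42.8 on day 8, 45.1, 40.3 and 33.8 on day 9 and 43.2, 42.2 and 32.7 on day 10. WT libraries were lower on day 8 than on day 7 and lower again on day 9, without overlap, whereas in KO days 8, 9 and 10 overlapped. Day 8 against day 7 gave a log2 fold change of -0.53 (SE 0.12, adjusted p 0.0011) in WT and -0.71 (SE 0.12, adjusted p 6.9e-05) in KO. On the TPM scale the WT call ended, at -0.29 (adjusted p 0.055), and the KO call held. The fall from day 7 to day 10 was 2.00-fold in WT (adjusted p 3.0e-06) and 1.69-fold in KO (adjusted p 6.0e-05), in all 18 alternative fits. The further WT fall from day 8 to day 9, -0.42 (SE 0.12, adjusted p 0.044), kept its call in 12 of 18 fits. It was lost without any 1 of the WT mice (adjusted p 0.21 to 0.26) and on the TPM scale (0.12). In limma-voom it was lost with no mouse term (0.067) and with the mouse as a block by the labelled numbers (0.065), and kept with the block by the exchanged ones (0.011).

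Ptges (ENSMUSG00000050737.13, chr2:30889471-30929863, reverse strand), the inducible prostaglandin E synthase, had 55 to 151 counts per library. It stood at 5.10, 5.71 and 6.46 CPM on day 7, 4.47, 5.09 and 5.58 on day 8, 3.86, 3.58 and 2.499 on day 9 and 3.38, 4.31 and 3.56 on day 10 in WT. It stood at 5.51, 4.67 and 5.49 CPM on day 7, 5.18, 3.28 and 5.83 on day 8, 3.87, 3.00 and 3.30 on day 9 and 2.33, 2.85 and 2.06 on day 10 in KO. Days 7 and 8 overlapped in both genotypes. In WT, day 9 lay below day 8 without overlap (log2 fold change -0.61, SE 0.20, adjusted p 0.078), a step that was not called and passed in 6 of 18 alternative fits. KO on day 10 had the lowest mean of the 8 groups, 2.41 ± 0.399 CPM (SD, n = 3). Day 10 was 1.54-fold lower than day 7 in WT (log2 fold change -0.62, SE 0.20, adjusted p 0.018), a call kept in 14 of 18 fits and lost without any 1 of the WT mice (adjusted p 0.056 to 0.16) and on the TPM scale (-0.26, adjusted p 0.12). In KO it was 2.17-fold lower (log2 fold change -1.12, SE 0.20, adjusted p 2.5e-04), in all 18 fits. Gm13400 overlaps Ptges on the same strand, with counts equal to 1.11% of those of Ptges.

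Hpgd (ENSMUSG00000031613.9, chr8:56294585-56321043, forward strand), which inactivates prostaglandins, was barely detected, with 0 to 29 counts per library. WT values were 1.16, 1.12 and 0.385 CPM on day 7, 0.524, 0.345 and 0.239 on day 8, 0.386, 0.279 and 0.136 on day 9 and 0.463, 0.235 and 0.705 on day 10. In KO they were 0.319, 0.814 and 0.514 CPM on day 7, 0.441, 0.0670 and 0.296 on day 8, 0.240, 0.175 and 0 on day 9 and 0.209, 0.232 and 0.413 on day 10. The group ranges overlapped in all 12 comparisons between days or genotypes. EdgeR called 0 of these 12, and 0 had an unadjusted p under 0.05, the lowest being 0.050 for day 8 against day 7 in WT. On day 9 the log2 fold change of KO over WT was -0.91 (SE 0.79), with a 95% interval of -2.57 to 0.74. The count of 0 in 1 KO library of day 9 allows a level of up to 0.1001 CPM (3 counts).

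**Figure D3:**
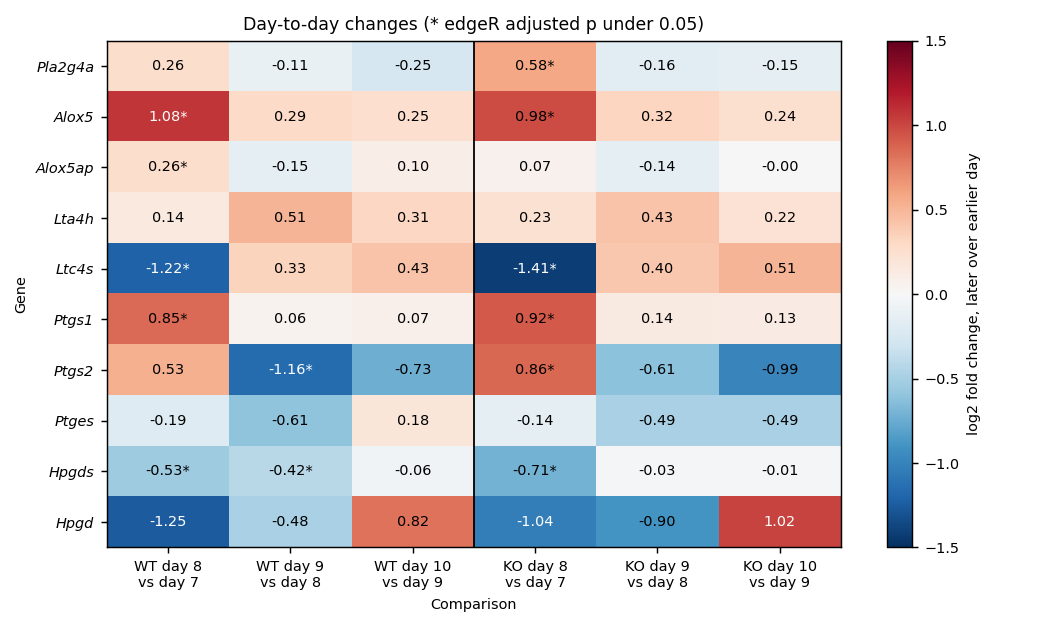
Log2 fold change of each gene for each step of 1 day, later over earlier, in WT (left 3 columns) and KO (right 3 columns), with * where the edgeR adjusted p was under 0.05. Most marked cells lie in the step from day 7 to day 8, with Alox5 and Ptgs1 positive and Ltc4s and Hpgds negative in both genotypes.

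Between KO and WT on the same day, edgeR called none of the 10 genes. The estimates farthest from 0 on the log2 scale, leaving out the sparse Hpgd, were those of Ptgs2 on days 9 (0.98) and 10 (0.71), higher in KO, and Ptges on day 10 (-0.64), lower in KO. On day 7 the count was 0 of 10, against 1.45% of all genes. At an unadjusted p under 0.05 there were 2, Alox5 and Alox5ap (15.7% of all genes), while DESeq2 called 1 and limma-trend 0 (523 and 120 of all genes). On days 8, 9 and 10 edgeR called 0, 0 and 0, against 0.00688%, 0.00688% and 0.0138% of all genes, and so did DESeq2 and limma-trend. The numbers at an unadjusted p under 0.05 on these days were 1, 2 and 3, against 5.91%, 8.15% and 7.3% of all genes. Groups without overlap numbered 1, 2, 2 and 3 of the 10 on the 4 days, against 26.2%, 9.39%, 14.1% and 10.4% of all genes. The median log2 fold change of the 10 genes was -0.01, 0.03, 0.10 and 0.10 on days 7 to 10, and that of all genes between -0.01 and 0.00. Of the markers of other cell types, 1 of macrophages was called, higher in KO on day 7, and none of the dendritic cell markers was called on any day. The 95% interval on day 10 was -0.06 to 0.51 for Pla2g4a, -0.03 to 0.29 for Ptgs1 and -0.47 to 0.24 for Lta4h.

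**Figure D4:**
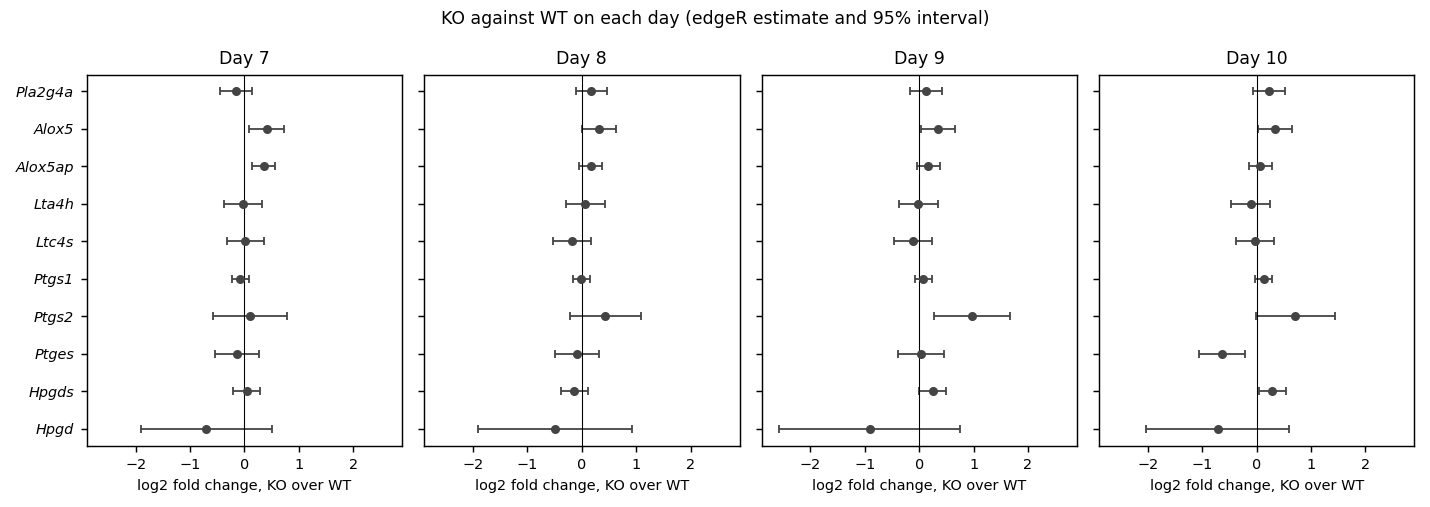
Log2 fold change of KO over WT on each day, as the edgeR estimate with its 95% interval. Intervals of Pla2g4a, Lta4h, Ltc4s, Ptgs1 and Hpgd take in 0 on all 4 days, Alox5 lies right of 0 on each day, and Hpgd has the widest intervals.

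Alox5 was higher by mean in KO on each day, with log2 fold changes of 0.41, 0.32, 0.35 and 0.34 (SE 0.15 each) on days 7 to 10. The adjusted p-values were 0.19, 0.84, 0.54 and 0.63, so it was not called. Without KO mouse 67 under the exchanged numbers, the library rich in dendritic cell markers described further on, the log2 fold changes were 0.25, 0.15, 0.21 and 0.25. On days 8 and 9 that library had 182 and 218 CPM, the other KO libraries 129 to 131 and 166 to 169, and the WT libraries 110.0 to 131 and 131 to 169.9. On days 7 and 10 all 3 KO libraries lay above the WT libraries (189 to 246 against 169.5 to 174 CPM on day 10). The 4 days are repeat samples of the same mice, not separate evidence. Alox5ap on day 7 was at 366 ± 56.6 CPM for KO and 286 ± 22.8 CPM for WT (SD, n = 3 each), with overlap (log2 fold change 0.36, SE 0.10, adjusted p 0.087). It passed in 3 of 18 alternative fits, with a lowest adjusted p of 0.0090: the DESeq2 test and the fits without KO mouse 64 under either numbering.

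Ptgs2 had the largest difference on day 9, 6.30, 5.03 and 3.64 CPM in KO against 2.65, 2.05 and 2.91 in WT. All 3 KO libraries were above WT, with 1.97 times the level (log2 fold change 0.98, SE 0.33, adjusted p 0.36), which was not called. On day 10 the log2 fold change was 0.71 (SE 0.35, adjusted p 0.70), with overlap. Ptges went the other way on day 10, 2.33, 2.85 and 2.06 CPM in KO against 3.38, 4.31 and 3.56 in WT, without overlap (log2 fold change -0.64, SE 0.20, adjusted p 0.39). Hpgds on day 10 was at 39.4 ± 5.81 CPM for KO and 32.2 ± 3.63 CPM for WT (SD, n = 3 each), with overlap and an adjusted p of 0.58. The TPM ratio of Hpgds to Ptges, chosen after its values were seen, was 9.05 to 11.4 in KO and 4.86 to 5.97 in WT on day 10, and the groups overlapped on days 7, 8 and 9.

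Whether KO and WT changed by unequal amounts between days 7 and 10 was tested as an interaction. EdgeR called 0 of the 10 genes (0.0619% of all genes), 0 had an unadjusted p under 0.05 (6.31% of all genes), and DESeq2 and limma-trend called 0. The values nearest the threshold were those of Alox5ap, -0.29 with a 95% interval of -0.59 to 0.01, and Pla2g4a, 0.38 with -0.03 to 0.79 (log2 scale, KO minus WT). For Alox5 the interval was -0.52 to 0.37 and for Ptgs1 -0.02 to 0.43. The intervals were widest for Ptgs2 (-0.38 to 1.61) and Hpgd (-1.39 to 1.36).

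KO libraries of 1 day were farther apart than WT libraries for Pla2g4a and Lta4h. The coefficient of variation of Pla2g4a was 1.78% to 7.04% in the 4 WT groups and 12.7% to 22.6% in the 4 KO groups, and that of Lta4h 2.59% to 9.75% and 13.3% to 23.5%, with no test of the difference. It was 5.45% to 26.1% and 20.1% to 62.7% for Ccr7, outside the 10 genes, and 3.63% to 8.57% and 1.23% to 11.7% for Ptgs1. The share of all genes with a wider spread in KO was not computed. On days 7, 8, 9 and 10 the KO library with the most Alox5 was also the one with the most Lta4h and Ccr7 and the least Pla2g4a, a pattern noted after the values were seen. It carried number 67 on days 7, 8 and 9 and number 64 on day 10, and under the exchanged numbering, in which high Ddx3y stays with 64 throughout, it carries 67 on all 4 days. On day 8 this library had 182 CPM of Alox5 against 131 and 129 in the other KO libraries, and 151 CPM of Ccr7 against 61.1 and 50.9. Its Pla2g4a was 49.4 CPM against 60.0 and 64.9. On day 10 it had 133 CPM of Ccr7 against 52.2 and 80.6, with Pla2g4a at 38.3 against 58.6 and 43.4 CPM. On each of the 4 days the KO library richest in Ccr7 was thus the poorest in Pla2g4a. In WT the library richest in Ccr7 was the poorest in Pla2g4a on day 8 only, and it had the most Alox5 on days 7, 9 and 10 and the most Lta4h on days 7 and 10.

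Cell type markers moved with this library. The dendritic cell markers summed to 3978 TPM in it on day 7 against 2874 and 3571 in the other KO libraries, to 7304 against 4798 and 3457 on day 8, to 10849 against 4406 and 6708 on day 9, and to 13567 against 6103 and 9545 on day 10. It was the highest of its group each day. Macrophage markers were lowest in it each day, for example 3867 TPM against 5375 and 6725 on day 8, as were platelet genes. Mast cell and basophil markers were highest in it each day, 204 TPM against 55.9 and 108 on day 7 and 134 against 67.0 and 117 on day 10. Neutrophil markers were highest in it on days 7, 8 and 9, at 22574 TPM against 7954 and 11878 on day 7, and lay between the other KO libraries on day 10. Eosinophil markers were highest in it on days 7 and 8 only. The part of these cell types in the spread of Alox5, Lta4h and Pla2g4a was not tested. On day 9 Ccr7 stood at 72.2 ± 33.6 CPM among KO and 31.6 ± 2.54 CPM among WT libraries (SD, n = 3 each; log2 fold change 1.19, SE 0.37, adjusted p 0.30) and edgeR did not call it on any day (0, 2, 2 and 1 of 18 alternative fits on days 7 to 10 did).

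**Figure D5:**
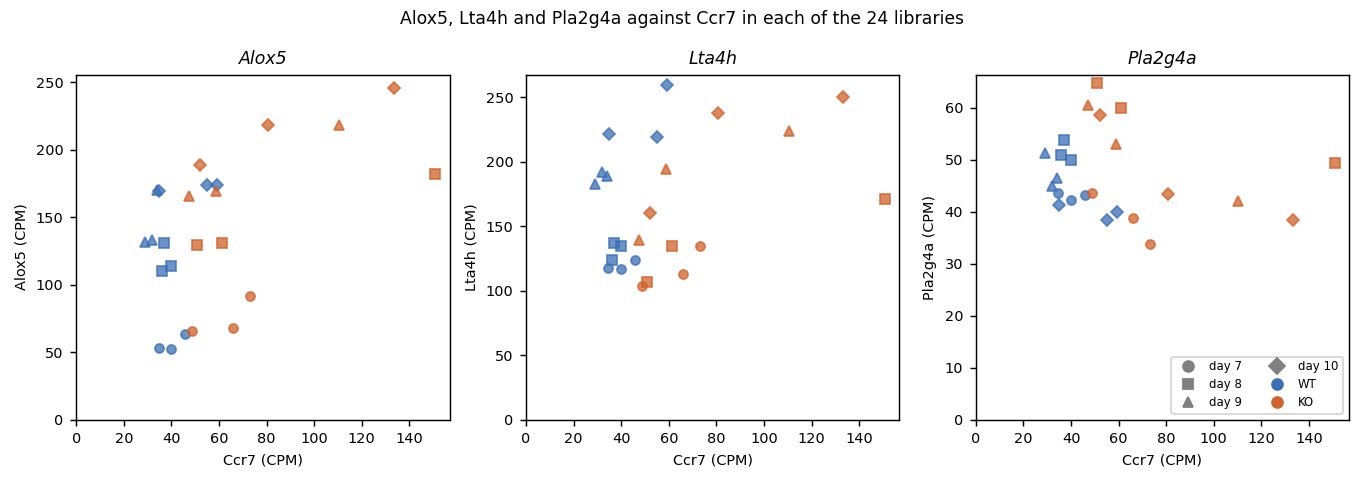
Alox5, Lta4h and Pla2g4a (CPM, linear axes from 0) against Ccr7 (CPM) in each of the 24 libraries, with colour for genotype and marker shape for day. KO libraries spread to 151 CPM of Ccr7, and on each day the KO library farthest right has the most Alox5 and Lta4h and the least Pla2g4a of its group, while WT libraries stay at or below 59.2 CPM.

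The wider eicosanoid pathway was read from a list of 54 other symbols, of which 53 were found and 43 passed the filter. It covers other phospholipases, lipoxygenases, prostanoid synthases, leukotriene-processing enzymes, epoxide hydrolases, receptors and transporters. Between KO and WT on day 7, 1 of 43 was called, against 1.45% of all genes: Ptgir, the prostacyclin receptor, at 103, 99.2 and 122 CPM in KO and 135, 164 and 175 in WT (log2 fold change -0.55, SE 0.13, adjusted p 0.033). The call held in 10 of 18 alternative fits and was lost without any 1 of the WT mice (adjusted p 0.068 to 0.23) and without KO mouse 64 (0.052) or 67 (0.16), under the exchanged numbers too, and on the TPM scale (0.058). Ptgir lay lower in KO without overlap on all 4 days, but on days 8, 9 and 10 its adjusted p was 0.80, 0.21 and 0.18. EdgeR called 0 of 43 on those days and 0 in the interaction, against 0.00688%, 0.00688%, 0.0138% and 0.0619% of all genes. An unadjusted p under 0.05 was reached by 7, 5, 7 and 3 of 43 (16.3%, 11.6%, 16.3% and 6.98%), against 5.91%, 8.15%, 7.3% and 6.31% of all genes. DESeq2 called 1, 3, 2 and 0, where it called 17, 98, 43 and 39 of all genes. Limma-trend called 0 in each, where it called 1, 1, 10 and 6 of all genes.

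Over the span from day 7 to day 10, 4 of the 43 rose and 12 fell in WT, and 4 rose and 10 fell in KO, against 18.9% and 18.1% of all genes in WT and 19.7% and 17.1% in KO. The WT risers were Ptger3, a prostaglandin E2 receptor, from 1.71 ± 0.391 to 8.09 ± 0.833 CPM, Ltb4r1, the high-affinity leukotriene B4 receptor, from 22.2 ± 5.04 to 46.4 ± 7.68, Alox15 from 4.16 ± 1.27 to 8.22 ± 1.75, and Abcc4, an exporter of prostaglandins, from 28.2 ± 1.07 to 41.8 ± 3.53 (SD, n = 3 each). The calls of Alox15 and Abcc4 were lost without any 1 of the WT mice (adjusted p 0.058 to 0.13 and 0.052 to 0.11). Among the WT genes that fell, Alox12, the platelet-type lipoxygenase, went from 8.81 ± 0.281 to 1.58 ± 0.215 CPM (adjusted p 7.3e-06; SD, n = 3 each). Ptger2, another prostaglandin E2 receptor, went from 51.0 ± 1.33 to 17.98 ± 0.629 CPM (adjusted p 1.2e-08). Pla2g7, which cleaves platelet-activating factor, fell from 1013 ± 76.5 to 366 ± 36.8 CPM, and Cyp4f18, which degrades leukotriene B4, from 86.9 ± 7.35 to 45.04 ± 9.09 CPM (SD, n = 3 each). From day 7 to day 8 the list had 9 rises and 12 falls in WT and 7 and 15 in KO, against 21.5% and 22% of all genes in WT and 21.1% and 20.9% in KO.

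Across the 24 libraries, which share 6 mice and 4 days, Pearson's r of log2 CPM was 0.91 between Alox5 and Ptgs1 and 0.80 between Alox5 and Lta4h. Hpgds ran opposite to Ptgs1 (-0.86) and Alox5 (-0.83), and Pla2g4a opposite to Ltc4s (-0.71). Pla2g4a and Ptgs2, which share a stretch of chromosome 1, had r = 0.34, and Alox5 and its partner Alox5ap 0.35. Among 10620 genes, those most like Pla2g4a were Mdm2 (r = 0.93), Metap1, Itgam, Cyb5a and Lrrc59 (0.89 to 0.90), with Mdm2 known as the ubiquitin ligase of p53 and Itgam as CD11b. Most like Alox5 were Tuba8 (0.99) and L1cam (0.98). The nearest to Ptgs1 were Ccnd2 and Cenpt, to Lta4h Nup210 and Cenph, and to Hpgds Cd180 and Plekhm2 (r = 0.93 to 0.98). Ptges lay closest to Slc31a1 and Gadd45a, Ptgs2 to the chemokine gene Cxcl2 and to Etv6, and Alox5ap to Tspo and Was (r = 0.82 to 0.89). Hpgd, at its low counts, had Cyb5d2 and Rab5b as nearest (r = 0.75 to 0.76). These values of r describe these libraries and carry no test.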

How the data were processed

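RNA-seq was done on 24 libraries, 3 mice of each genotype sampled on 4 days. The authors deposited raw counts per gene, and TPM per gene scaled by gene length and library total. The submitters' processing notes name STAR 2.6.1, FastQC 0.11.9, DESeq2 1.22.2 and mm10 without roles; the counter, strand setting and annotation are not given in the sources used here, so reads of overlapping genes may be split or shared. Library totals were 19952047 to 31049798 counts, which are PCR reads without molecular identifiers, so a limit from a count of 0 covers counting error only.

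The counts were filtered with filterByExpr over the 8 groups (14535 of 55487 genes kept), scaled by TMM and fitted with the quasi-likelihood model of edgeR 4.0.16 in R 4.3.3, with 1 coefficient per group and 16 residual degrees of freedom. P-values were adjusted by Benjamini-Hochberg over all genes tested, with a threshold of 0.05. The fitting steps were tested on simulated data. The 10 genes and the gene and marker lists were chosen with earlier results of these data known. Genes outside the 10 were named where called between genotypes, as the 4 largest changes in each direction from day 7 to day 10 in WT among called genes with average log2 CPM above 1, or as most like one of the 10 by Pearson's r (5 for Pla2g4a and 2 for each other); 1 result of this last rule is not reported here. Arpc4 and Ccr7 were named as well, and Ddx3y was used to check numbering and for a term in an alternative fit.

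Mouse numbers in the labels tie libraries across days. Deviations of same-numbered WT libraries from their group means correlated in 18 of 18 pairs of days (r above 0.1 in each), and those of KO libraries in 7 of 18. With KO numbers 64 and 68 exchanged on day 8 and 64 and 67 on day 10, 18 of 18 did. Alternatives were DESeq2 1.42.0 size factors and its Wald test, no filter, a fit to only the groups compared, a term for the library with high Ddx3y, limma-trend (limma 3.58.1) on log2(TPM + 1), limma-voom with the mouse as a block and with no mouse term, and each mouse left out in turn. Promoters came from RefSeq (GRCm38.p6) and gene positions from GENCODE M21 (GRCm38), which held 55394 of the 55487 identifiers when versions were ignored.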

Additional observations from a re-analysis of the deposited data

How the results depend on the processing

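Under 18 alternatives for each comparison, no call of the 10 genes changed direction. Of 2334 values, 41 lost and 47 gained a call, and 68 that were not called moved by more than their standard error. The other 2178 stayed on their side of the threshold. Among them, values not called moved by no more than their standard error, and the size of a move was not checked where a call was kept. Brackets below give the number of all genes called in the same fits. Of the counts of the 10 genes called, KO against WT on day 7 went from 0 to 1 with the DESeq2 Wald test (211 to 523). The step from day 7 to day 8 in WT went from 5 to 9 with only the groups compared (6315 to 7491). The step from day 8 to day 9 in WT went from 2 to 4 with only the groups compared or the DESeq2 Wald test and to 0 with limma-trend (785 to 2180, 1325 and 521). From day 9 to day 10 in WT it went from 0 to 1 with only the groups compared (523 to 828). Among the 43 wider pathway genes, KO against WT on day 7 went from 1 to 2 with only the groups compared, 3 with DESeq2 and 0 with limma-trend (211 to 314, 523 and 120). On day 8 it went from 0 to 1 with DESeq2 (1 to 17). On day 9 it went from 0 to 2 without a filter, 1 with the Ddx3y term and 3 with DESeq2 (1 to 90, 5 and 98). On day 10 it went from 0 to 1 without a filter and 2 with DESeq2 (2 to 43 and 43). Of the wider genes, from day 9 to day 10 in WT 2 became 1 with DESeq2 size factors or limma-trend (523 to 526 and 380). With only the groups compared, 6 became 0 from day 8 to day 9 in KO (338 to 0), and 14 became 9 from day 7 to day 10 in KO (5353 to 3363).

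In limma-voom the calls of the 10 genes from day 8 to day 9 in WT went from 2 to 0 with no mouse term, and also with the mouse as a block by the labelled numbers. Those of the wider genes from day 9 to day 10 in WT went from 2 to 0 in both fits. The labelled block had a consensus correlation of 0.0046, and these losses were present before it was added. With the block by the exchanged numbers (consensus correlation 0.23) the former count was 4, where 1707 of all genes were called, against 532 with the labelled block. The exchanged numbers and the fit with no mouse term were chosen after seeing the data. With the exchanged numbers the 10 genes had 1 call from day 8 to day 9 in KO and 1 from day 9 to day 10 in KO, and the wider genes 2 in the latter. Of all genes, 1295 and 457 were called at these steps. Other counts stayed within 1.5 times under the block.

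Leaving out 1 mouse in turn, under the labelled and the exchanged numbers, gave for the 10 genes 0 to 1 calls between genotypes on day 7, 4 to 6 from day 7 to day 8 in WT and 5 to 6 in KO, 0 to 4 and 0 to 1 from day 8 to day 9 in WT and KO, 0 to 1 and 0 to 5 from day 9 to day 10, and 4 to 7 and 5 to 8 from day 7 to day 10. For the wider genes it gave 0 to 4, 0 to 3, 0 to 1 and 0 to 1 calls between genotypes on days 7 to 10. Their WT ranges were 14 to 24 from day 7 to day 8, 1 to 9 from day 8 to day 9, 0 to 3 from day 9 to day 10 and 7 to 20 from day 7 to day 10. The KO ranges were 15 to 21, 0 to 8, 0 to 8 and 6 to 22. The number of all genes called moved as well, for example from 14 to 2090 from day 9 to day 10 in KO without KO mouse 67 by the labelled numbers. The cause of these shifts was not tested, and neither was the part of the smaller number of samples.

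Limits: each group had 3 mice, the KO mouse numbers are uncertain, and the culture is a mixture in which cell makeup and RNA per cell cannot be told apart. Hpgd and Ptgs2 had few counts and the largest standard errors of the 10 genes, 0.58 to 0.79 and 0.31 to 0.36 on the log2 scale between 2 groups. Day 7 and day 8 are separated by a replating, which cannot be told apart from the passing of a day.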
